A study of Rattus norvegicus with 4 samples.

Results

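The G1 cyclins, their kinases, the retinoblastoma protein gene Rb1 and the transcription factor gene E2f1 form the machinery that carries a cell from G1 into S phase. The set was given as 10 symbols: Ccnd1, Ccnd2, Ccnd3, Cdk4, Cdk6, Ccne1, Ccne2, Cdk2, Rb1 and E2f1. Probes for rat transcripts were assigned to it where their accession maps to one of these symbols in RefSeq, which gave 13 probes printed as 24 spots. All 10 genes had a probe, and 9 of them were measured on every array, out of 16506 named genes measured on every array.

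The cells were NR8383, an established line of alveolar macrophages washed out of the lung of a normal rat, which grows partly attached and partly afloat. The series holds 1 group of 4 biological replicates (replicates 1 to 4), each hybridised to its own one-colour array, so it allows no comparison between treatments. All 4 cultures were at 20 passages, were grown with 15% fetal bovine serum, were seeded for 48 h, and stood for 4 h in DMEM with 10% serum in a condition marked ALI, an abbreviation that the labels leave unexplained. No transgene or genetic change is labelled. The group thus stands for a cell line kept in serum, and not for alveolar macrophages taken fresh from an animal.

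As background, mitogens induce the D-type cyclins, which bind the kinases encoded by Cdk4 and Cdk6 and start to phosphorylate the Rb1 protein. Rb1 protein that is not phosphorylated holds E2F factors silent. Once released, E2F factors raise transcription of the E-type cyclins and of replication genes, and cyclin E with the Cdk2 kinase completes the phosphorylation of Rb1. Much of this control acts on protein, through phosphorylation, inhibitors and degradation, which an RNA array does not read.

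The arrays differed in brightness. The scanner software called between 50.9% and 58.9% of rat spots well above background, and the 75th percentile of signal rose from 83.2 on replicate 1 to 168 on replicate 4, so every level below is relative to that percentile of its own array. A level is the log2 of processed signal over the percentile, and a level of 0 equals it. Levels are given as mean ± SD over the arrays, and those of different genes are not set against each other, because probes differ in how brightly they hybridise. Of 10 macrophage markers 9 were detected, among them Cd68 at 7.44 ± 0.17 (n = 4), Csf1r at 1.84 ± 0.40 (n = 4) and Spi1 at 3.79 ± 0.11 (n = 4), while the scavenger receptor Marco was well above background on 1 array. Of 15 measured markers of epithelium, fibroblasts, neutrophils, T cells, B cells and red cells, 0 were detected and 3 passed limma's test for signal over negative controls. The 2 endothelial markers were detected, Pecam1 at 0.19 ± 0.72 (n = 4) and Cdh5 at -0.87 ± 0.14 (n = 4). Of these, Pecam1 is also known from leukocytes. In bulk RNA, fewer cells of a kind and less RNA per cell cannot be told apart.

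Promoter sequence is shown here because the pathway ends in E2F-driven transcription. RefSeq windows of the GRCr8 build, from 250 bases before to 50 bases after the gene start, were matched for Ccnd3, Cdk4, Ccne1, Cdk2 and Rb1, and not for Ccnd1, Ccnd2, Cdk6, Ccne2 and E2f1. An E2F motif (TTTCGCGC, TTTGGCGC, TTTCCCGC or TTTGCCGC, on either strand, with overlapping matches kept) was found in 1 of these 5 windows, that of Rb1, and in 2.14% of all 33469 windows. Among 12 matched windows of a list of E2F targets of S phase entry, 8 held it: Cdt1, Mcm2, Mcm3, Mcm5, Mcm6, Mcm7, Pola1 and Tyms. The Rb1 match lies just after the start (chr15:54911839-54911864, minus strand), and the matches of the replication helicase genes Mcm2 (chr4:122918092-122918117, minus strand) and Mcm6 (chr13:42404475-42404500, minus strand) and of the thymidylate synthase gene Tyms (chr9:120776104-120776129, minus strand) lie before it. Mcm2, Mcm6 and Tyms were chosen for display after their windows were searched. Capitals mark one match in each, and the stretches of Mcm2 and Mcm6 hold an overlapping match on the other strand.
Rb1: aagtgacgtTTTCCCGCggttggccc
Mcm2: tgacccggtTTTCGCGCgaaaacccg
Mcm6: gcgtctgctTTTGGCGCgaaattagc
Tyms: ggtgcgggtTTTGGCGCcgactacac

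The GC box GGGCGG, bound by Sp1 and its relatives, was present on either strand in all 5 matched windows and in 33.1% of all windows. It is not particular to the members. Windows of E2F targets held it in 10 of 12 cases, those of cyclin-dependent kinase inhibitors in 5 of 6 and those of reference genes in 4 of 7. The AP-1 motif TGANTCA was in 0 of the 5 and in 7.33% of all, and the CRE motif TGACGTCA was in 0 of the 5 and in 1.83% of all. Chosen after the sequence was seen, the E box CACGTG, bound by basic helix-loop-helix factors, occurred 3 times in the Cdk4 window and in 6.42% of all windows. The 250 bases before the start are shown for Ccnd3 (chr9:20897876-20898125, minus strand) and Ccne1 (chr1:99927910-99928159, minus strand), which read highest on replicate 1 (Ccne1 not so under normexp, a model-based background correction), and for Cdk4 (chr7:64771203-64771452, plus strand), which read lowest there. The low Cdk4 value came from 1 of its 2 spots, and Ccnd3 rests on 1 spot. No link between these motifs and the levels on replicate 1 was tested. Capitals mark GC boxes and E boxes, and a match is a run of letters, not a measured binding site.
Ccnd3: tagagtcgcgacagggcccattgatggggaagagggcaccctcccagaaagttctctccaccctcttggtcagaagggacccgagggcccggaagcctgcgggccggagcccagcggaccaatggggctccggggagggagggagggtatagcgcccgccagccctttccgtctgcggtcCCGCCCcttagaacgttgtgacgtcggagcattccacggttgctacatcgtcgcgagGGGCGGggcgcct
Ccne1: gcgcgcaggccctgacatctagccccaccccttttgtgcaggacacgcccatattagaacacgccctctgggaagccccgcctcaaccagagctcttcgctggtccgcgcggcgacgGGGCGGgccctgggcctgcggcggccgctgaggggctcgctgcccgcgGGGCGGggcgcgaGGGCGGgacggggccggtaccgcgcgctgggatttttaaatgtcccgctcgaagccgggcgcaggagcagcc
Cdk4: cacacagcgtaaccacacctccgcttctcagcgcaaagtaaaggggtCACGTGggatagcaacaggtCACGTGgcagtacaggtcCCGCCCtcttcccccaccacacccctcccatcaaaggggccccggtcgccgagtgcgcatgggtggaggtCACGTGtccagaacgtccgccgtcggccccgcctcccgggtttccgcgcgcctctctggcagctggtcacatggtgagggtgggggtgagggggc

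Transcripts of most of the G1 machinery were detected in all 4 cultures. Of the 9 members measured on every array 8 were detected, meaning that most spots of a probe were well above background on each array, against 53.1% of all named genes. The exception was Cdk6. Rb1 was well above background on the 3 arrays that measured it. Limma's one-sided test for signal over negative controls, set at their 95th percentile and adjusted by Benjamini-Hochberg over all probes, called all 9, against 69.2% of all genes.

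All 3 D-type cyclins were detected. Cyclin D1 (Ccnd1), the classic growth-factor-induced cyclin, had levels of 5.12, 4.29, 4.36 and 4.15 on replicates 1 to 4 (4.48 ± 0.44, n = 4). Replicate 1 was high and the other arrays lay within a narrow band below it. The gene is the best measured of the set, with 10 spots of one probe and 2 of another. Both probes placed replicate 1 above its 4-array mean, the second by 0.67 and the first by 0.61. For the first, the SD between spots within an array (10, or 9 on replicate 3 after an outlier was left out) was between 0.066 and 0.20, below the SD of 0.42 between arrays for that probe.

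Cyclin D2 (Ccnd2) had levels of 4.74, 4.57, 4.14 and 4.36 on replicates 1 to 4 (4.46 ± 0.26, n = 4). Here replicate 1 was only slightly above replicate 2. Cyclin D3 (Ccnd3) had levels of 3.46, 2.65, 2.48 and 2.19 (2.70 ± 0.55, n = 4). Replicate 1 stood 1.02 above the mean of the others. Ccnd3 rests on 1 spot, and detected spots around it also read lower on replicate 4, with a median of -0.44 against the mean of replicates 1 and 2. Its own reading there was -0.87 on the same scale, and the part that the surroundings play in it was not tested.

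The kinase partners of the D-type cyclins differed in detection. Cdk4 was detected, with levels of 3.45, 3.73, 3.67 and 3.87 on replicates 1 to 4 (3.68 ± 0.17, n = 4). The arrays lay close together, and it was the detected member with the smallest SD and the one that read lowest on replicate 1. That low value came from 1 of its 2 spots. On replicate 1 one spot stood at a level of 3.17 and the other at 3.74, while on replicates 2 to 4 the first read 3.90, 3.81 and 3.89 and the second 3.57, 3.53 and 3.84.

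Cdk6, the other D-type cyclin kinase, was at or near background. Of its 12 readings (3 probes on 4 arrays) 1 was well above background, that of 1 probe on replicate 2. The processed signals of that probe were 3.31, 19.3, 11.9 and 7.58 on replicates 1 to 4. A second probe gave 2.74, 6.64, 5.78 and 9.46, and the third stayed between 2.71 and 3.27. The 95th percentile of negative controls lay between 3.20 and 3.68 on these arrays. Limma's test called the first of these probes (adjusted p = 0.0156) and the second (adjusted p = 0.0369) but not the third (adjusted p = 0.991). The first probe is designed to a curated RefSeq transcript and the others to a predicted one. A level for Cdk6 is therefore not given, and a low signal bounds what these probes detect, not the amount of protein.

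**Figure D1:**
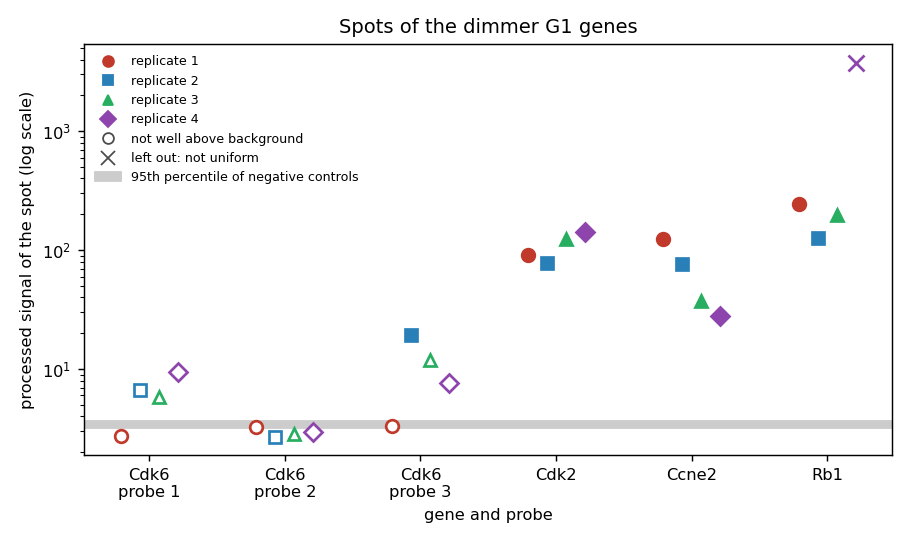
Processed signal of single spots (log axis) for Cdk6 (3 probes), Cdk2, Ccne2 and Rb1 on each of the 4 arrays, with open symbols where the spot was not well above background and a grey band for the 95th percentile of negative controls (3.20 to 3.68). Only 1 of 12 Cdk6 readings is filled, and the Rb1 spot of replicate 4, left out as not uniform, lies at 3763 above the 126 to 246 of the other arrays.

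Both E-type cyclins and their kinase were detected. Cyclin E1 (Ccne1) had levels of 3.41, 3.05, 3.06 and 2.90 on replicates 1 to 4 (3.11 ± 0.21, n = 4). Replicate 1 was highest and the others lay close together, but under normexp replicate 4 was highest, with levels of 2.45, 2.41, 2.45 and 2.51. Cdk2, the kinase that E-type cyclins activate, had levels of 0.13, -0.51, -0.01 and -0.24 (-0.16 ± 0.28, n = 4). Its processed signals were 91.4, 78.6, 125 and 142, and its low array was replicate 2.

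Cyclin E2 (Ccne2) was the most variable member, with levels of 0.58, -0.55, -1.76 and -2.57 on replicates 1 to 4 (-1.08 ± 1.38, n = 4). Its processed signals were 124, 76.1, 37.3 and 28.2 on those arrays. The signal stayed at least 7.66 times the 95th percentile of negative controls. Its only spot lies at the edge of an area of the array that is dim on replicates 3 and 4. The 45 detected spots nearest to it read a median of -0.58 on replicate 3 and -1.52 on replicate 4 against the mean of replicates 1 and 2, where the Ccne2 spot read -1.77 and -2.59. Around the other members' spots these medians lay between -0.15 and 0.13 on replicate 3 and between -0.44 and 0.08 on replicate 4. Between replicates 1 and 2 the surroundings differed little, at 0.05 and -0.05, while the Ccne2 spot read 0.57 and -0.57. The part of the dim area in the spread of Ccne2 was not tested, and without the spots of that area the gene has no value.

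**Figure D2:**
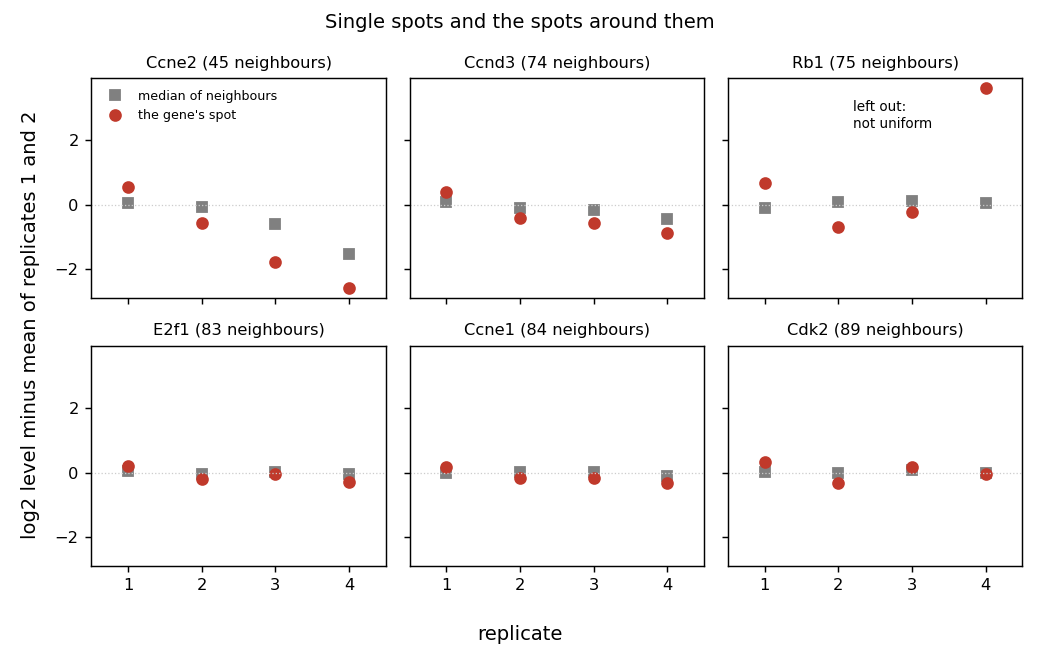
Level of each gene's single spot (red circles) and median of the detected spots around it (grey squares), on the log2 scale against the mean of replicates 1 and 2, for each of the 4 arrays. Around Ccne2 the neighbours fall to -0.58 on replicate 3 and -1.52 on replicate 4, while those of Rb1, at 0.07 on replicate 4, do not move with its left-out spot.

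Rb1, which encodes the pocket protein that restrains E2F, could be read on 3 arrays. Its levels were 1.56, 0.18 and 0.65 on replicates 1 to 3 (0.80 ± 0.70, n = 3). On replicate 4 the scanner software marked its only spot as not uniform, as it did 0.417% of spots there, and the value was left out. The deposited signal of that spot was 3763, against 246, 126 and 198 on replicates 1 to 3, or 15.3 times the highest of them. Its 75 detected neighbours were at 0.07 on replicate 4 against the mean of replicates 1 and 2. The median pixel of the Rb1 spot was 168, 173 and 205 on replicates 1 to 3 and 2408 on replicate 4, before any scaling between arrays. Among replicates 1 to 3, replicate 1 thus had the lowest median pixel but the highest processed signal. The software's error for that signal was 13.4% of it.

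E2f1, the E2F family member that activates S phase genes, had levels of 3.17, 2.76, 2.94 and 2.68 on replicates 1 to 4 (2.89 ± 0.22, n = 4). Replicate 1 was highest, the whole range was 0.49, and under normexp replicate 3 was highest instead. The signal was at least 224 times the 95th percentile of negative controls on every array.

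**Figure D3:**
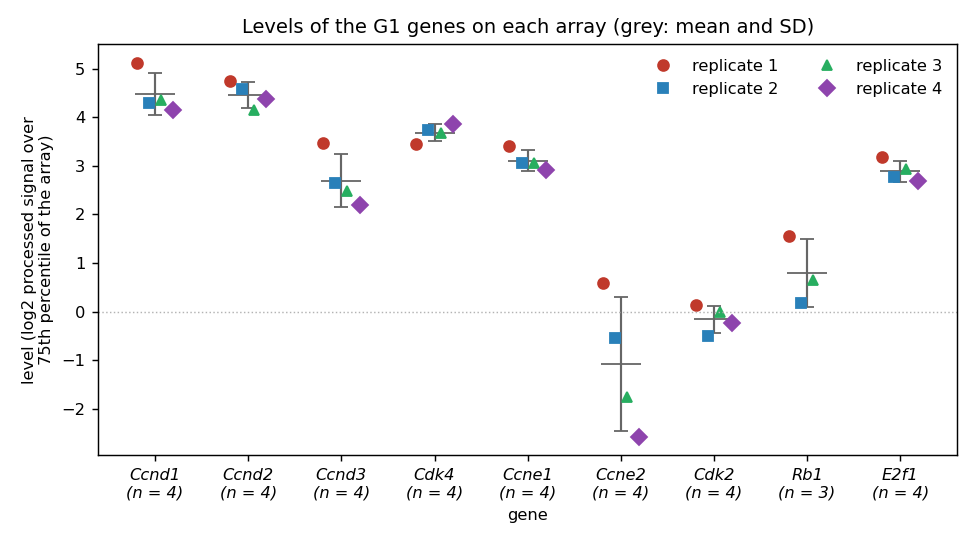
Levels of 9 members on each array (coloured symbols), as log2 processed signal over the array's 75th percentile, with grey bars for the mean and SD. Replicate 1 lies highest for every gene shown except Cdk4 (under normexp also not for Ccne1 and E2f1), and Ccne2 has the widest spread (SD 1.38). Rb1 is shown for replicates 1 to 3 only, and its left-out spot of replicate 4 would stand highest, at 4.49. Heights of different genes are not comparable.

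Most members read higher on replicate 1 than elsewhere. A shift in the readings of cell cycle genes on that array was already known from earlier results of these data. Of the 8 detected members 7 read highest on replicate 1, where 42.3% of all detected genes did, and 1, Cdk4, read lowest there, where 32.7% did. The difference of replicate 1 from the mean of the other arrays was 2.21 for Ccne2, 1.02 for Ccnd3, 0.85 for Ccnd1, 0.40 for Ccne1, 0.39 for both Ccnd2 and Cdk2, 0.38 for E2f1 and -0.30 for Cdk4. Its median was 0.39 over the members and 0.07 over all 8772 detected genes. At least 0.5 above the others were 3 members (18.5% of all genes), and 0 were at least 0.5 below (13.5% of all genes). Spots around 2 of the 3, Ccne2 and Ccnd3, read lower on replicate 4, at medians of -1.52 and -0.44 against the mean of replicates 1 and 2. Without Ccne2, 6 of 7 members read highest on replicate 1, and the median difference was 0.39. With normexp background correction on median pixel signals the difference was -0.01 for Ccne1 and 0.11 for E2f1, and neither then read highest on replicate 1. That setting also adds an offset of 50 to each signal. Whether the offset, the median pixels or the correction moved these genes was not tested. The median SD between arrays was 0.27 for the members and 0.24 for all detected genes, and without replicate 1 it was 0.17 and 0.15. For 0 of the 8 members did the gap of one array to the nearest other pass Dixon's 95% critical value, where 8.32% of all detected genes passed. Replicate 1 was also the dimmest array. Of the 9 detected macrophage markers 5 read highest on it, with a median difference of 0.40, close to that of the members. They ran from -0.20 for Spi1 and -0.03 for Cd68 to 0.70 for Csf1r and, at most, 1.54. The part of brightness, or of what moved the macrophage markers, in these differences was not tested.

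Genes acting around these members were described from 7 lists with 67 members, of which 59 were measured and 53 detected (89.8%, against 53.1% of all named genes, the share to hold each list's count against). Of 7 cyclin-dependent kinase inhibitors 5 were detected. The inhibitors of Cdk2 complexes Cdkn1a and Cdkn1b lay at 2.79 ± 0.08 (n = 4) and 1.79 ± 0.04 (n = 4), and Cdkn2b, an inhibitor of Cdk4 and Cdk6, lay at -0.99 ± 0.30 (n = 4) on 1 of its 3 probes. Not detected were Cdkn1c, well above background on no array, and Cdkn2a on 2. The difference of replicate 1 from the other arrays went both ways over the 5 inhibitors, at 0.09 for Cdkn1a, 0.00 for Cdkn1b, -0.46 for Cdkn2b, 0.62 for Cdkn2c and -0.22 for Cdkn2d. Their median was 0.00.

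The other pocket proteins, E2F factors and their partners were detected in 7 of 8 measured cases. Rbl1, an Rb1 relative, lay at -2.09 ± 0.47 (n = 4), its relative Rbl2 at -0.03 ± 0.09 (n = 4) and the activator E2f3 at -0.14 ± 0.30 (n = 4), and E2f7, a repressor, was well above background on 1 array. All 4 measured genes of the MuvB core and its kinase were detected, with Lin37 at 2.28 ± 0.20 (n = 4), Lin54 at 1.24 ± 0.10 (n = 4) and Rbbp4 at 1.58 ± 0.06 (n = 4). MuvB is the complex that represses cell cycle genes together with pocket proteins. All 5 measured activators and chaperones of the kinases were detected. They included the activating subunits Ccnh at 1.60 ± 0.46 (n = 4) and Mnat1 at 1.17 ± 0.25 (n = 4) and the phosphatase Cdc25a at 2.05 ± 0.35 (n = 4). Of 9 genes for turnover of cyclins and inhibitors 8 were detected, such as Fbxw7, which marks cyclin E for degradation, at 0.47 ± 0.19 (n = 4), Cks1b at 1.31 ± 0.16 (n = 4) and Cul1 at 2.47 ± 0.39 (n = 4). Skp2, which marks Cdkn1b for degradation, was well above background on 1 array.

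Most genes downstream of E2F also read highest on replicate 1. Of 17 measured E2F targets of S phase entry 15 were detected, and Pola1 and Orc1 were each well above background on 2 arrays. Of the 15, 13 read highest on replicate 1 (42.3% of all detected genes), and the median difference of replicate 1 from the others was 0.90. The S phase cyclin Ccna2 read 1.01, 0.44, 0.45 and 0.71 on replicates 1 to 4. The replication clamp Pcna read 4.87, 4.26, 4.33 and 4.43, and the helicase subunit Mcm2 read 4.73, 3.74, 3.83 and 3.62. Replicate 1 was the high array for each. Among the targets that did not read highest there, Cdt1, named after its value was seen, had a difference of -0.86. Its levels were -1.43, -1.45, -1.35 and 1.08 on replicates 1 to 4, so replicate 1 lay between replicates 2 and 3. Replicate 4 stood far above them. Genes of G2 and mitosis, detected in 9 of 9 measured cases, had a median difference of 0.29, and 10 reference genes had one of -0.05. The latter included Actb at 9.06 ± 0.27 (n = 4), Gapdh at 7.99 ± 0.07 (n = 4) and Hprt1 at 3.95 ± 0.09 (n = 4). Differences of single reference genes ran from -0.50 to 0.45, the highest being Actb, so some were as large as those of several members. Of the 10, 3 read highest and 5 lowest on replicate 1. Among the mitotic genes, the kinase gene Cdk1 read 5.74, 4.30, 4.47 and 4.42 on replicates 1 to 4, and its partner Ccnb2 read 3.29, 1.97, 1.96 and 1.82. The cyclin gene Ccnb1 read 2.41, 1.67, 1.81 and 2.06. All of these stood highest on replicate 1, as 6 of the 9 detected genes of the list did (42.3% of all detected genes). The remaining lists moved less. The median difference was -0.12 for the MuvB core and its kinase (0 of 4 highest on replicate 1). It was 0.22 for activators and chaperones (2 of 5) and 0.02 for turnover genes (2 of 8). Over all 53 detected genes of the 7 lists it was 0.19, and 28 read highest on replicate 1. Whether these lists differ from the members was not tested.

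**Figure D4:**
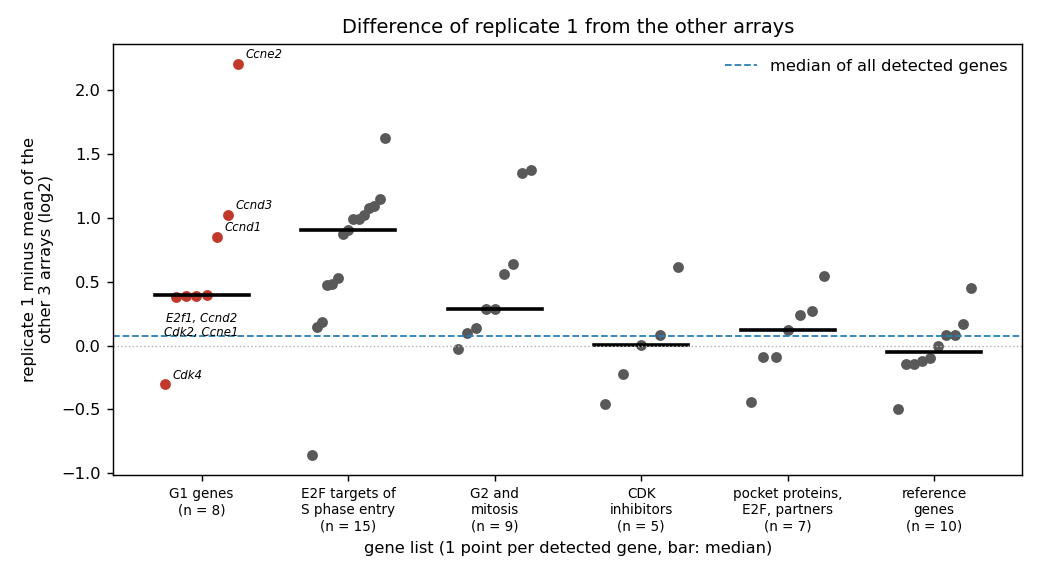
Difference of replicate 1 from the mean of the other 3 arrays, on the log2 scale, for each detected gene of 6 lists, with a black bar at the list's median and a dashed line at the median of all detected genes (0.07). The MuvB, activator and turnover lists are not drawn. The medians are 0.39 for the G1 genes, 0.90 for E2F targets, 0.29 for G2 and mitosis genes, 0.00 for inhibitors, 0.12 for pocket proteins, E2F factors and partners, and -0.05 for reference genes. Under normexp the Ccne1 value is -0.01.

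The genes whose profile over the 4 arrays was closest to the median profile of the detected members were Ing2, Fbxo7 and Ric8b. Likeness was the root mean square difference of levels centred on each gene's mean, and it was 0.014, 0.017 and 0.018. Ing2 read 1.75, 1.40, 1.35 and 1.26 on replicates 1 to 4, Fbxo7 read 3.63, 3.26, 3.25 and 3.10, and Ric8b read -2.61, -2.93, -2.98 and -3.08. With 4 arrays such likeness is common, since 140 of 8764 other genes lay within 0.05.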

How the data were processed

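Total RNA of 4 cultures was measured on 4 arrays of 1 slide, quantified with Agilent Feature Extraction 11.0.1.1 per the submitters' processing notes. The deposited intensity of each spot (linear, not scaled between arrays) comes as a processed signal and as the median pixel of spot and background, per the file headers. Of 58717 spots for rat transcripts, between 440 and 1206 per array marked as outliers were left out, and 0 were saturated. Spots of a probe were averaged on the log2 scale, each array's 75th percentile was subtracted, and a gene's level is the mean of its detected probes. Accessions were named through RefSeq (GRCr8): 17614 of 40539 matched. The array's own annotation is on another build. The detection test used R 4.3.3 with limma 3.58.1 and was tested on simulated data. The simulated noise was independent between probes and arrays, so it cannot show how the test behaves under array-wide differences. On the real data the test was fitted to log2 signal of all 45280 probes on every array, at an adjusted p of 0.05. Figures used matplotlib 3.10.9. Members and lists were chosen with earlier results of these data known, among them the shift in readings of cell cycle genes on replicate 1. Counts of genes highest on replicate 1 thus describe a known pattern and are no independent test of it. Named genes are all members, the first 3 detected genes of each list, its undetected genes (all where 3 or fewer, otherwise the first 2), and the 3 nearest profiles. Markers of cell types other than macrophages are given as counts, except the 2 of endothelium. Outside this rule, Cdkn2c and Cdkn2d complete their list, genes with an E2F motif are named for it, and Cdt1, Mcm6 and Tyms were given values after these were seen. A gene of the E2F target list is counted in the list but not reported here by name. The cultures are labelled as biological replicates, and their number limits the precision. Neighbours of a spot, a check chosen after seeing the data, are detected spots within 8 rows and 5 columns. Alternatives were each replicate left out, other detection calls, normexp (offset 50), quantile normalization, another percentile, other rules for probes, the dim area left out and, chosen after seeing the data, outlier spots kept.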

Additional observations from a re-analysis of the deposited data

Results flagged for a closer look

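Of 85 detected genes described or listed, 5 had one array set apart from the other 3 by a gap that passes Dixon's 95% critical value, which chance does for about 1 in 20 genes and which 8.32% of all detected genes did. A share of this size does not set these genes apart from the array as a whole. On replicate 1 this held for 4 of them. The mitotic kinase gene Cdk1 read 5.74 there, against 4.30 to 4.47 elsewhere, and Ccnb2 read 3.29 against 1.82 to 1.97. The helicase subunit Mcm6 read 1.98 there against 0.79 to 0.92, and Tyms read 1.38 against 0.46 to 0.57. The replication licensing gene Cdt1 stood apart on replicate 4, at 1.08, with -1.43, -1.45 and -1.35 on replicates 1 to 3. The Rb1 spot of replicate 4 carried a processed signal of 3763 but entered no value, because the software marked it as not uniform. The gene has no second spot on the array.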

How the results depend on the processing

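Over 15 alternatives, 117 of 133 levels moved by less than the gene's SD. Much of that count was fixed in advance. Other detection calls returned the same levels, and leaving out 1 array cannot shift a mean by its SD. All 16 larger moves fell under normexp, the other percentile or outlier spots kept. Normexp on median signals lowered Ccnd1 to 3.94, Ccnd2 to 3.93, Ccnd3 to 2.11, Cdk4 to 3.07, Ccne1 to 2.45 and E2f1 to 2.29. A percentile taken over detected probes, a higher reference, gave 1.40 for Ccnd1, 1.37 for Ccnd2, -0.39 for Ccnd3, 0.60 for Cdk4, 0.020 for Ccne1, -4.16 for Ccne2, -3.24 for Cdk2, -0.20 for E2f1 and -2.32 for Rb1. With outlier spots kept, Rb1 stood at 1.70. The median SD of the members ranged from 0.17 (without replicate 1) to 0.33 (without replicate 4). The count of detected members ranged from 7, without the dim area, to 9, and that of members highest on replicate 1 from 5, under normexp, to 8. The median deviation of replicate 1 from the 4-array mean was 0.30 and ranged from 0.23 to 0.32 over the alternatives, and that of all genes from -0.01 to 0.12. For the E2F targets it was 0.68 and ranged from 0.47 to 0.68. Rb1 has no value under quantile normalization, nor Ccne2 without the dim area. Cdk6 has no level to compare. No paired analysis was possible because the series has 1 group. Single-spot members have software error estimates between 10.0% and 16.6% of signal, and 4 arrays cannot show small differences between cultures.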
